A study of Mus musculus with 24 samples.

Results

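Messenger RNA of 7 genes of the MHC class II pathway was followed in cultured mouse pulmonary fibroblasts: H2-Aa, H2-Ab1, H2-Eb1, H2-DMa, H2-DMb1, Cd74 and the transactivator Ciita. The genes were chosen by name, with no measured value in the rule, and are 7 of the 55291 gene names counted. The cells came from the lungs of WT mice and of mice labelled TLR4-/-, all on the C57BL/6 strain and 4 to 8 weeks old, and the fibroblasts of each group were isolated from 3 to 4 pooled lungs and used at passages 3 to 6. After a night in reduced-serum medium, cells of each genotype received PBS (the vehicle), 1 μg/ml recombinant mouse CIRP (rmCIRP, a cold-inducible RNA-binding protein that acts as a danger signal outside the cell), 2 ng/ml of the recombinant mouse form of the fibrogenic cytokine TGF-β1 (rmTGF-β1) or both proteins, and were lysed 24 h later. Each of these 8 conditions gave 3 libraries of total RNA, 24 in all. The paper speaks of samples and of repeats of each, and neither it nor the labels say whether the 3 libraries of a condition are separate cultures, so the p-values measure only the spread between these libraries, which may be technical.

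MHC class II molecules are pairs of an α and a β chain that carry peptides from endocytosed proteins to the cell surface for CD4+ T cells. H2-Aa and H2-Ab1 encode the α and β chains of I-A, and H2-Eb1 the β chain of I-E, which C57BL/6 mice do not display because their I-E α gene is inactive. Cd74, the invariant chain, escorts new class II molecules and plugs their groove, and H2-DM, made of H2-DMa and H2-DMb1, exchanges its last fragment for peptide. Ciita is the co-activator that joins the factors bound at class II promoters, and interferon-γ induces it in fibroblasts and other cells that are not professional antigen-presenting cells.

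The libraries held 29853346 to 39664606 reads on genes (median 33585047). Tlr4 was not lower in the libraries labelled TLR4-/-, with group means of 759 to 903 normalized counts (reads divided by the library's DESeq2 size factor) against 650 to 759 in WT libraries, and a count for the whole gene cannot tell which part of Tlr4 was read. Xist had 4403 to 6201 reads in each library labelled TLR4-/- and at most 3 in each WT library, so genotype and sex cannot be told apart. The sources do not say that a genotype had several pools of lungs, so genotype and cell isolation may not be told apart either. Among the libraries labelled TLR4-/- with both proteins, library 3 stood apart from libraries 1 and 2 (chi-square per degree of freedom 45.7 and 31.3, against 6.55 between libraries 1 and 2). Some of the results that use that condition are also given without it. Among those labelled TLR4-/- with rmTGF-β1, library 3 was also further from libraries 1 and 2 (11.9 and 15.6, against 3.57). The 8 fibroblast markers (such as Col1a1, Dcn and Thy1) were present in every library, with summed normalized counts of 391672 to 567908, but all 15 macrophage markers examined were present in every library too. Their part in the levels of the class II genes was not tested, and in RNA from whole cultures fewer cells of a type and less RNA per cell cannot be told apart.

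The promoters of class II genes carry an X box, bound by the RFX complex, and a Y box, bound by NF-Y, on which Ciita assembles. RefSeq windows on GRCm38.p6 were matched for 4 of the 7 genes: H2-Aa, H2-Eb1, H2-DMa and H2-DMb1. Of these, 3 windows are shown, 250 bases up to the transcription start, because they show where these letters lie in the genes compared. Capitals mark CCAAT or its inverse ATTGG (the Y box) and ACNGATG on either strand (the core of the X box).
H2-Aa (chr17:34287824-34288073, minus strand): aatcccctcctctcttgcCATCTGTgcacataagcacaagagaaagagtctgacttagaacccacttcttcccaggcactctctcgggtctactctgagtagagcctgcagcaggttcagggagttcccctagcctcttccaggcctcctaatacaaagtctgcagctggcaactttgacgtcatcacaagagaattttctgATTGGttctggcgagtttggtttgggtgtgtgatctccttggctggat
H2-Eb1 (chr17:34305617-34305866, plus strand): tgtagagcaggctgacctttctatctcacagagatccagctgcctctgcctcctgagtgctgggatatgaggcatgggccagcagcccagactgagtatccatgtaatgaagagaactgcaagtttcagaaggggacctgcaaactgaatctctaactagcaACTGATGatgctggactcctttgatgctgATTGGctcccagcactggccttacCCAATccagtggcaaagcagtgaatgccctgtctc
H2-DMb1 (chr17:34152941-34153190, plus strand): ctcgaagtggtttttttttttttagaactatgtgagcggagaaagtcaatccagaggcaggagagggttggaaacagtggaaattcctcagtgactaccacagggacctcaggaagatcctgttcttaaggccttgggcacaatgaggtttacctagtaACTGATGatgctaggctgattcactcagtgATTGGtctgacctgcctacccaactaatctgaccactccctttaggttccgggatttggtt
In the H2-Eb1 window the X box core lay 88 bases before the start and the nearest inverted CCAAT 29 bases after it, at 59. The H2-DMb1 window held the same arrangement at 91 and 61 bases before the start. The H2-Aa window held an inverted CCAAT 48 bases before the start. Its only match to ACNGATG lay far from it, at 232 bases, on the opposite strand, and need not be its X box. An X box in other letters nearer that CCAAT was not sought, so the marks do not show that H2-Aa lacks the arrangement. Of 32851 windows of this length, 33.8% held CCAAT on either strand and 8.31% held ACNGATG, and 18 (0.0548%) held the core with an inverted CCAAT 25 to 35 bases on, a range chosen after these windows were seen. Of those 18, 4 belonged to class II genes: H2-Eb1, H2-Eb2, H2-DMb1 and H2-DMb2. For H2-DMa, 1 of its windows held CCAAT and neither held the X box core. These are matches of letters, not measured binding sites, and a site written with other letters would be missed.

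The 7 genes spanned a wide range of abundance. Per kilobase of exon, H2-DMb1 had the highest level, with group means of 105 to 254 normalized counts per kb, followed by H2-DMa at 64.2 to 105 and H2-Ab1 at 29.4 to 68.5. H2-Eb1 was at 9.85 to 18.9 and Cd74 at 1.58 to 12.1 on the same scale. Ciita, at 0.328 to 0.561 per kb, and H2-Aa, at 0 to 0.353 per kb, were close to the counting floor in every condition. Cells that present antigen make the I-A chains and the invariant chain in abundance. In these cultures the peptide-exchange subunits led on this scale, and the transcripts of the I-A α chain and of the invariant chain were scarce. The exon lengths are those of GENCODE M21. In that annotation 70.3% of the exon bases of H2-Aa and 52.8% of those of H2-Ab1 lie only in non-coding transcripts, and the counts do not resolve exons. The order of the highest genes depends on this choice. Per kilobase of exon in coding transcripts, H2-DMb1 was at 126 to 304, H2-DMa at 82.9 to 136 and H2-Ab1 at 62.2 to 145. On that scale H2-Ab1 was above both subunits in WT cells with rmCIRP (136, against 126 for H2-DMb1) and with both proteins (145 against 129).

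**Figure D1:**
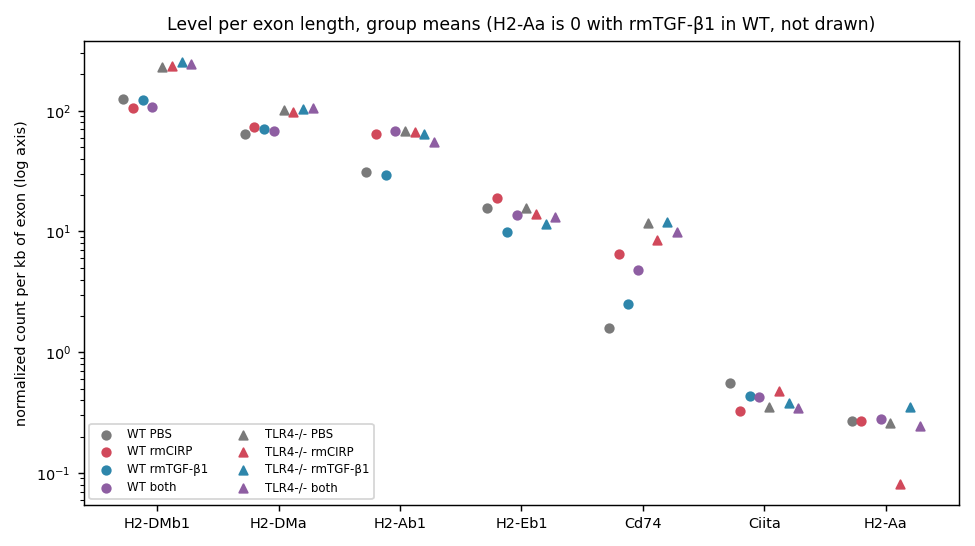
Group means of the 7 genes in normalized counts per kilobase of exon (log axis) for the 8 conditions. H2-DMb1 (105 to 254) was above H2-DMa (64.2 to 105), and Ciita (0.328 to 0.561) and H2-Aa (up to 0.353) lay at the bottom.

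H2-Ab1, the I-A β chain, changed most clearly with rmCIRP in WT cells. The 3 WT libraries with PBS had 62.6, 91.9 and 85.3 normalized counts, and the 3 with rmCIRP had 180.4, 148 and 165. With rmTGF-β1 alone the values were 78.7, 74.0 and 73.5, and with both proteins they were 158, 182 and 187. All 6 WT libraries that received rmCIRP were above all 6 that did not, with or without rmTGF-β1. The means were 79.9 ± 15.4 with PBS and 165 ± 16.1 with rmCIRP (SD, n = 3), a log2 fold change of 1.04 (SE 0.12, edgeR adjusted p = 6.38e-07). Against rmTGF-β1 alone, 75.4 ± 2.85, the addition of rmCIRP gave 176 ± 15.6, a log2 fold change of 1.21 (SE 0.12, edgeR adjusted p = 6.72e-08). For rmTGF-β1 against PBS the log2 fold change was -0.09 (SE 0.14, edgeR adjusted p = 0.782). The interaction of rmCIRP with rmTGF-β1 was 0.18 on the log2 scale (SE 0.18, edgeR adjusted p = 0.978).

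Without any rmCIRP, the level of H2-Ab1 in libraries labelled TLR4-/- overlapped that of rmCIRP-treated WT cells. The PBS libraries had 160.0, 195 and 169 normalized counts and the rmCIRP libraries 162, 187 and 168. Treatment with rmTGF-β1 gave 159, 165 and 171, and both proteins gave 133, 154 and 140.1. The PBS and rmCIRP libraries overlapped fully, and the lowest values were those with both proteins. H2-Ab1 was higher than in WT with PBS (log2 fold change 1.13, SE 0.12, edgeR adjusted p = 9.44e-08) and with rmTGF-β1 (1.14, SE 0.12), with no overlap between the genotypes. With rmCIRP the difference was 0.08 (SE 0.11, edgeR adjusted p = 0.589). With both proteins it turned to -0.29 (SE 0.11, edgeR adjusted p = 0.0369), which was -0.28 without library 3 labelled TLR4-/- (adjusted p = 0.0732), and the call was lost without library 1 labelled TLR4-/- (-0.24) or without WT library 2 (-0.27) or 3 (-0.24).

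The response to rmCIRP itself differed between the genotypes for H2-Ab1. In libraries labelled TLR4-/- it was -0.01 on the log2 scale (SE 0.11, edgeR adjusted p = 0.994), which lies 1.05 (SE 0.16) below the WT response, with an adjusted p of 5.86e-05 for the difference by edgeR. In the presence of rmTGF-β1 the response was -0.22 (SE 0.11, edgeR adjusted p = 0.319), and the difference from WT was -1.43 (SE 0.17, edgeR adjusted p = 1.21e-06), or -1.41 without library 3. Ordered by mean, the WT conditions with rmTGF-β1 and with PBS were lowest, separated from all 6 others by more than the sum of the SDs, and no further neighbouring pair among those 6 differed by that much. The addition of rmTGF-β1 to rmCIRP in libraries labelled TLR4-/- lowered H2-Ab1, with a log2 fold change of -0.28 (SE 0.11, edgeR adjusted p = 0.0702). That call was lost without library 1 (-0.23) or 3 (-0.26) with both proteins or library 2 with rmCIRP (-0.20).

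H2-Aa, which encodes the I-A α chain, was close to absent. It had 20 reads in all 24 libraries (95% Poisson interval 12.2 to 30.9, counting error only), 9 in WT libraries and 11 in those labelled TLR4-/-, at most 3 in any library, and none in 11. It did not pass the filter on low counts and was not tested. With rmCIRP in WT cells, where H2-Ab1 was at 165 normalized counts, the H2-Aa libraries had 1.06, 1.03 and 0.988. No difference between conditions in H2-Aa was detectable at this depth.

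**Figure D2:**
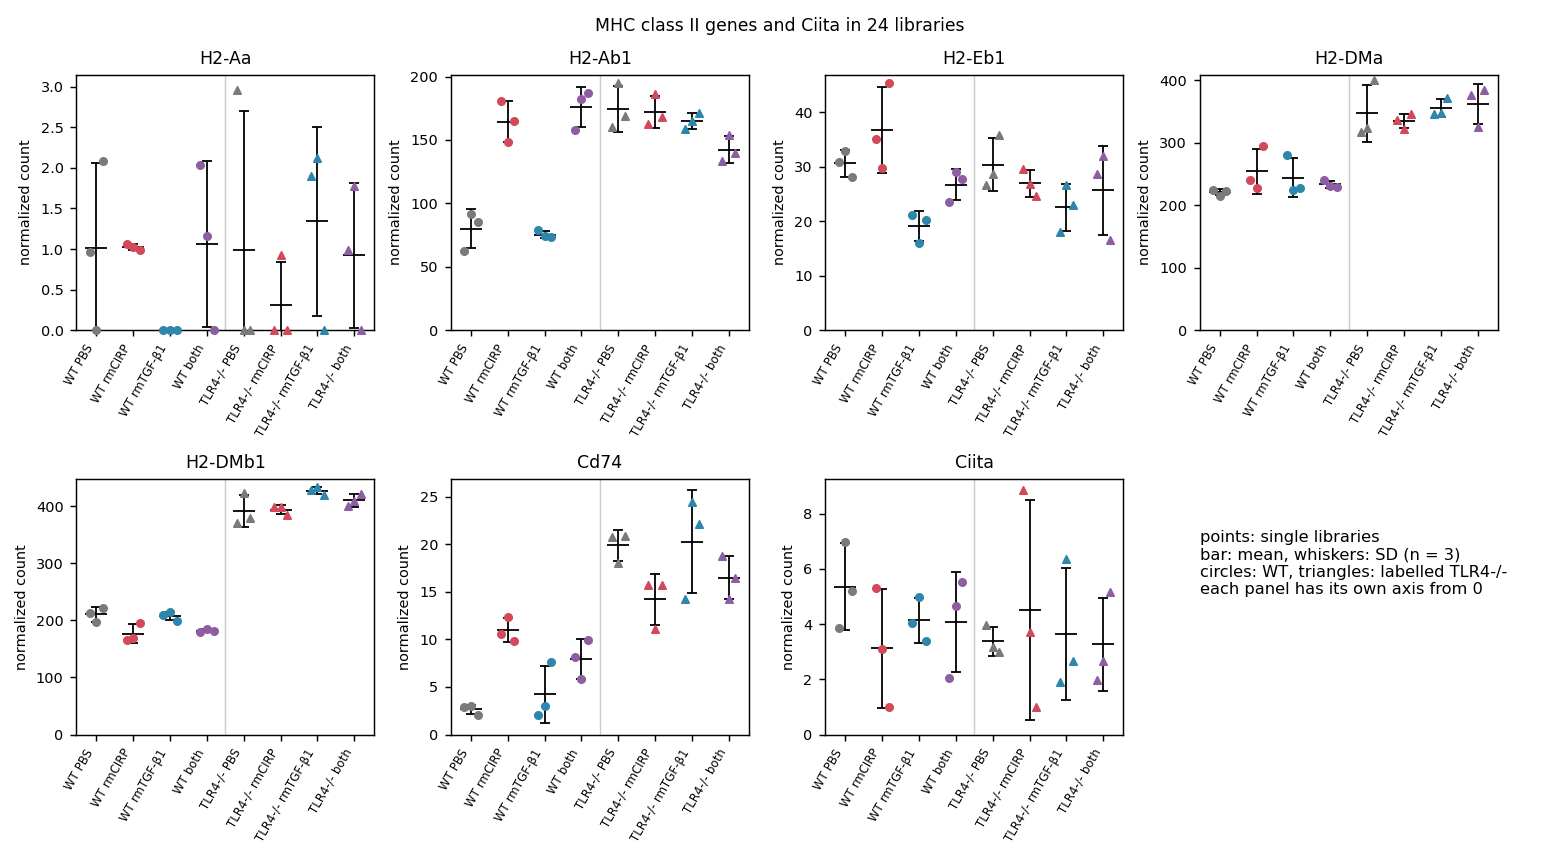
Normalized counts of each of the 7 genes in each of the 24 libraries (points), with mean ± SD of the 3 libraries per condition. H2-Ab1 splits the WT libraries with rmCIRP (148 to 187) from those without (62.6 to 91.9), while H2-DMa and H2-DMb1 split the genotypes.

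H2-Eb1, the I-E β chain, stayed between 16 and 45.4 normalized counts in all 24 libraries. With PBS the WT libraries had 30.8, 32.9 and 28.1, and with rmCIRP 35, 29.8 and 45.4. With rmTGF-β1 they had 21.2, 16 and 20.3, all below the PBS libraries, and with both proteins 23.5, 29.0 and 27.7. The fall with rmTGF-β1, from 30.6 ± 2.43 to 19.2 ± 2.77, was -0.67 on the log2 scale (SE 0.23, edgeR adjusted p = 0.0716). That call was lost when WT PBS library 1, 2 or 3 was left out (-0.65, -0.61 and -0.73), and without WT rmTGF-β1 library 2 (-0.57) or 3 (-0.73). With both proteins the libraries did not overlap those with rmTGF-β1 alone, but the log2 fold change of 0.46 (SE 0.24, edgeR adjusted p = 0.141) missed the threshold. The log2 fold change with rmCIRP was 0.26 (SE 0.21, edgeR adjusted p = 0.349).

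The libraries labelled TLR4-/- gave 26.7, 28.6 and 35.8 for H2-Eb1 with PBS and 29.5, 26.9 and 24.6 with rmCIRP. With rmTGF-β1 they gave 18, 26.6 and 23 and with both proteins 28.6, 32.0 and 16.5. The genotypes overlapped with PBS, where the log2 fold change was -0.01 (SE 0.21, edgeR adjusted p = 0.968). With rmCIRP the libraries labelled TLR4-/- were lower, at -0.44 on the log2 scale (SE 0.21, edgeR adjusted p = 0.0829), a call lost without WT rmCIRP library 1 (-0.48) or 3 (-0.26) or library 2 (-0.44) or 3 (-0.38) labelled TLR4-/-. No neighbouring conditions in the order of H2-Eb1 means were further apart than the sum of their SDs. H2-Eb1 thus had, at PBS, the same mean in both genotypes to within 1 count (30.6 and 30.4), unlike H2-Ab1.

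H2-DMa and H2-DMb1, the subunits of the peptide-exchange factor, were separated by genotype in every treatment. H2-DMa had 224, 216 and 224 normalized counts in WT libraries with PBS and 241, 227 and 295 with rmCIRP. Those with rmTGF-β1 had 280.4, 225 and 228 and those with both proteins 241, 231 and 229. Among the libraries labelled TLR4-/-, the PBS libraries had 318, 324 and 400.2 and the rmCIRP libraries 336, 323 and 346. The rmTGF-β1 libraries had 346, 349 and 372, and the addition of both proteins gave 377, 325 and 384. Every library labelled TLR4-/- was above every WT library for H2-DMa. The log2 fold change between genotypes was 0.65 with PBS (SE 0.10, edgeR adjusted p = 2.04e-05), 0.40 under rmCIRP, 0.55 under rmTGF-β1 and 0.63 under both (0.59 without library 3), each past the threshold. Within WT, rmCIRP gave a log2 fold change of 0.20 (SE 0.11, edgeR adjusted p = 0.149), although the 3 libraries were all above those with PBS. M21 places 360 exon bases of H2-DMa (10.4%) under an exon of Brd2 on the opposite strand, and the strand setting of the counting is not given in the sources used here, so reads of the pair could be mixed.

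H2-DMb1 followed the genotype more strongly. WT libraries had 213, 197 and 222 normalized counts with PBS and 166, 169.8 and 196 with rmCIRP. The rmTGF-β1 libraries had 209.8, 214 and 199, and those given both proteins 179, 185 and 181. All 6 WT libraries that received rmCIRP lay below all 6 that did not, although the gap was narrow, from 196 to 197. The fall with rmCIRP, from 210.4 ± 12.7 to 177 ± 16.3, was -0.25 on the log2 scale (SE 0.07, edgeR adjusted p = 0.0120). Under rmTGF-β1 it was -0.20 (SE 0.07, edgeR adjusted p = 0.0576), a call lost without library 1 (-0.19) or 2 (-0.18) with rmTGF-β1 or library 1 (-0.19) or 3 (-0.20) with both.

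In libraries labelled TLR4-/- H2-DMb1 ranged from 370.5 to 434 normalized counts. The PBS libraries had 370.5, 423 and 379, and the rmCIRP libraries 399, 399 and 384. The rmTGF-β1 libraries had 429, 434 and 420.0, and those given both proteins 400.4, 408 and 422. All 12 were above the highest WT library, 222. The log2 fold change between genotypes was 0.89 with PBS (SE 0.07, edgeR adjusted p = 1.94e-10), 1.16 under rmCIRP, 1.05 under rmTGF-β1 and 1.18 under both (1.16 without library 3), each with an SE of 0.07. The response to rmCIRP, 0.02 (SE 0.06, edgeR adjusted p = 0.988), lay 0.27 above the WT response (SE 0.10, edgeR adjusted p = 0.0422). The last call was lost without library 1 or 3 with PBS (0.24 each in WT, 0.23 each labelled TLR4-/-), without WT library 1 or 2 with rmCIRP (0.23 each), or without library 2 labelled TLR4-/- with rmCIRP (0.24). H2-DMb1 shares 22.7% of its 50-base windows with its neighbour H2-DMb2, so some of its reads may have been split or set aside in the counting.

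Cd74, the invariant chain, was a low-count gene in these cultures, with 293 reads in all 24 libraries. The WT libraries with PBS had only 3, 3 and 2 reads, or 2.89, 3.00 and 2.08 normalized counts. The rmCIRP libraries had 10.6, 12.3 and 9.88 normalized counts. Those with rmTGF-β1 had 2.02, 3.00 and 7.61, and those given both proteins 8.16, 5.80 and 9.97. All 3 libraries with rmCIRP were above all 3 with PBS, and library 3 with rmTGF-β1 overlapped those with both proteins. With 32 reads against 8, the ratio of rmCIRP to PBS was 4.10 (95% counting interval 1.85 to 10.3). Added to rmTGF-β1, rmCIRP gave a ratio of 1.82 (22 reads against 14, interval 0.889 to 3.84). Fitted log2 values of Cd74 depend on the prior count added by the model, since WT libraries with PBS had at most 3 reads, and the gene passed the filter only through conditions where it was higher, so that the comparisons of Cd74 with those libraries are given as a description.

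The libraries labelled TLR4-/- had 20.7, 18 and 20.9 normalized counts of Cd74 with PBS and 15.7, 11.1 and 15.7 with rmCIRP. Treatment with rmTGF-β1 gave 14.2, 24.4 and 22.2, and both proteins gave 18.7, 14.2 and 16.5. All libraries with PBS were above those with rmCIRP, but the log2 fold change of -0.48 (SE 0.26, edgeR adjusted p = 0.782) missed the threshold. Between genotypes the ratio was 7.48 with PBS (59 reads against 8, interval 3.56 to 18.1) and 4.57 with rmTGF-β1 (63 against 14, 2.53 to 8.83). It was 1.29 with rmCIRP (44 against 32, 0.802 to 2.11) and 2.05 with both (51 against 22, 1.22 to 3.54). The intervals with PBS, with rmTGF-β1 and with both lay above 1, and that with rmCIRP held 1. The response to rmCIRP differed between genotypes by -2.47 on the log2 scale (SE 0.50). With rmTGF-β1 present the difference was -1.14 (SE 0.48), and -1.92 without WT rmTGF-β1 library 3.

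Ciita, the transactivator, was counted at 1 to 9 reads per library. It had 94 reads in the 24 libraries (95% Poisson interval 76.0 to 115), 49 in WT libraries and 45 in those labelled TLR4-/-, and it did not pass the filter. WT libraries had 3.85, 6.99 and 5.20 normalized counts after PBS and 5.31, 3.09 and 0.988 after rmCIRP. They had 4.03, 5 and 3.38 after rmTGF-β1 and 2.04, 4.64 and 5.54 after both. Those labelled TLR4-/- had 3.95, 3.18 and 2.99, then 8.85, 3.71 and 0.983, then 1.89, 6.38 and 2.66, and then 1.97, 2.67 and 5.15 in the same order of treatments. The conditions overlapped throughout, and no neighbouring pair of means differed by more than the sum of their SDs. With rmCIRP in WT cells, where H2-Ab1 and Cd74 were higher than with PBS, Ciita had 9 reads against 16 with PBS, a ratio of 0.577 (95% counting interval 0.225 to 1.39). The ratio between genotypes with PBS was 0.634 (10 reads against 16, interval 0.257 to 1.49). These intervals do not overlap those of Cd74 for the same pairs of conditions. The intervals cover counting error only and Cd74 passed the filter only where it was higher, so this is a description, not a test.

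Counted over the comparisons, 5 of the 7 genes could be tested, among them Cd74, which passed the filter only where it was higher. Without Cd74 the counts past the threshold were 2 of 4 with rmCIRP in WT cells, and between genotypes 3 of 4 with each of the 4 treatments. With rmCIRP in WT cells 3 of the 5 were past the threshold (2 higher, 1 lower), where 43.9% of all 16258 genes tested were (19.8% higher, 24.1% lower), and with rmTGF-β1 it was 1 of 5 against 12.4%. Adding rmCIRP to rmTGF-β1 in WT cells moved 2 of 5, against 42.2% of all genes. Adding rmTGF-β1 to rmCIRP moved none, against 20.5%, by edgeR, with 1 member at an unadjusted p under 0.05 and none called by DESeq2. Between genotypes 4 of 5 were higher in libraries labelled TLR4-/- with PBS, where 47.1% of all genes were called and 23.2% in that direction. With rmCIRP 3 of 5 were called, 2 of them higher (background 59.5%, 30.4% higher). With rmTGF-β1 4 of 5 were called, all higher (46.5%, 24.4% higher), and with both 4 of 5, of which 3 higher (52.8%, 26.8% higher). Libraries of the compared conditions did not overlap for 4 of the 5 with rmCIRP in WT, 3 of them higher (23.9% of all genes higher, 26.9% lower), and for 3 with rmCIRP added to rmTGF-β1, 2 of them higher (24.9% higher, 25% lower). They did not overlap for 4 of the 5, all higher, between genotypes with PBS (25.5% higher), and for Cd74 with rmCIRP in libraries labelled TLR4-/- (7.91% lower). With backgrounds this large, the counts over so few genes are read only as a description.

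Within the libraries labelled TLR4-/-, edgeR called none of the 5 with rmCIRP against PBS, where it called 0% of all genes, with no member at an unadjusted p under 0.05 and none called by DESeq2 (1 member had no adjusted p there). Over all genes in that comparison 1136 had an unadjusted p under 0.05 by edgeR and 33 were called by DESeq2. With rmTGF-β1 against PBS edgeR called none, against 23.9% of all genes, with 1 member at an unadjusted p under 0.05 and none by DESeq2. Without PBS library 2 edgeR called 1. With both against rmTGF-β1 it called none (2.69% of all genes), with no member at an unadjusted p under 0.05 and none by DESeq2, and with both against rmCIRP it called 1, H2-Ab1 (32.8%). The response to rmCIRP differed between genotypes by edgeR for 3 of 5 (31.4% of all genes), H2-Ab1, H2-DMb1 and Cd74. Cd74 passed the filter only where it was higher and counts here only as a description, and DESeq2 called 1 member in that comparison. Under rmTGF-β1 the response differed for 1 of 5 (20.9%). The response to rmTGF-β1 differed between genotypes for none (0.0861%) and the WT interaction of the proteins was past the threshold for none (0.0492%), by edgeR and by DESeq2, with no member at an unadjusted p under 0.05 in either.

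**Figure D3:**
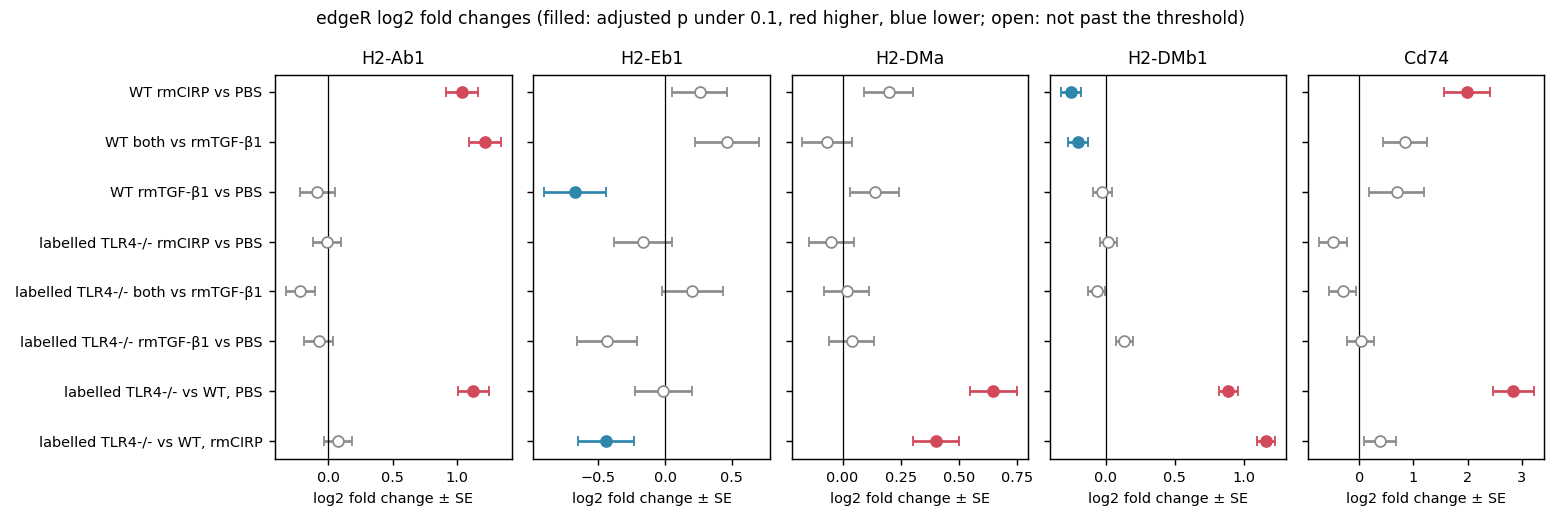
Log2 fold change ± SE by edgeR of the 5 tested genes in 8 comparisons of conditions, with filled points for an adjusted p under 0.1. H2-Ab1 is at 1.04 with rmCIRP in WT and -0.01 in libraries labelled TLR4-/-. With PBS 4 of 5 genes are higher in the latter, where 23.2% of all genes are. Among them is Cd74, which passed the filter only where it was higher.

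Macrophages express class II genes, and macrophage markers moved with the genotype. The 15 markers (such as Csf1r, Adgre1, Lyz2 and C1qa) summed to 80816 to 102457 normalized counts in WT libraries and to 347758 to 448826 in those labelled TLR4-/-. With PBS all 15 were higher in the latter by edgeR (median 2.19 on the log2 scale), as they were with rmTGF-β1, and 14 of 15 were with rmCIRP or both. Of all genes 23.2% were higher with PBS, 24.4% with rmTGF-β1, 30.4% with rmCIRP and 26.8% with both. With rmCIRP in WT cells the sum was lower, 82230 to 87650 against 94052 to 102457 with PBS. In that comparison 11 of the 15 were lower and 4 higher (Ptprc, Adgre1, Fcgr1 and Cd14), with a median of -0.36. Of all genes 24.1% were lower and 19.8% higher there. None of the 15 was called with rmCIRP in libraries labelled TLR4-/-, where edgeR called 0% of all genes.

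Set against this sum, the order of the genotypes turned. Per 1000 summed marker counts, H2-Ab1 was at 0.798 ± 0.120 in WT with PBS and 1.92 ± 0.142 with rmCIRP (SD, n = 3), and at 0.456 and 0.465 in libraries labelled TLR4-/-. H2-DMa was at 2.22 and 2.97 in WT and at 0.902 and 0.901 in the others, and H2-DMb1 at 2.12 and 2.07 against 1.02 and 1.06. With PBS the log2 ratio to the sum was lower in libraries labelled TLR4-/-, at -0.81 for H2-Ab1, -1.31 for H2-DMa and -1.06 for H2-DMb1. With rmCIRP in WT cells the ratio of H2-Ab1 was higher by 1.27 and that of H2-DMa by 0.41 on the log2 scale, with no overlap between the libraries, and that of H2-DMb1 differed by -0.03 (exact permutation test, two-sided, p = 0.7). For the others the exact permutation test gave p = 0.1, the smallest that 3 against 3 libraries allow. The part of the macrophage markers in these results was not tested beyond these ratios.

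**Figure D4:**
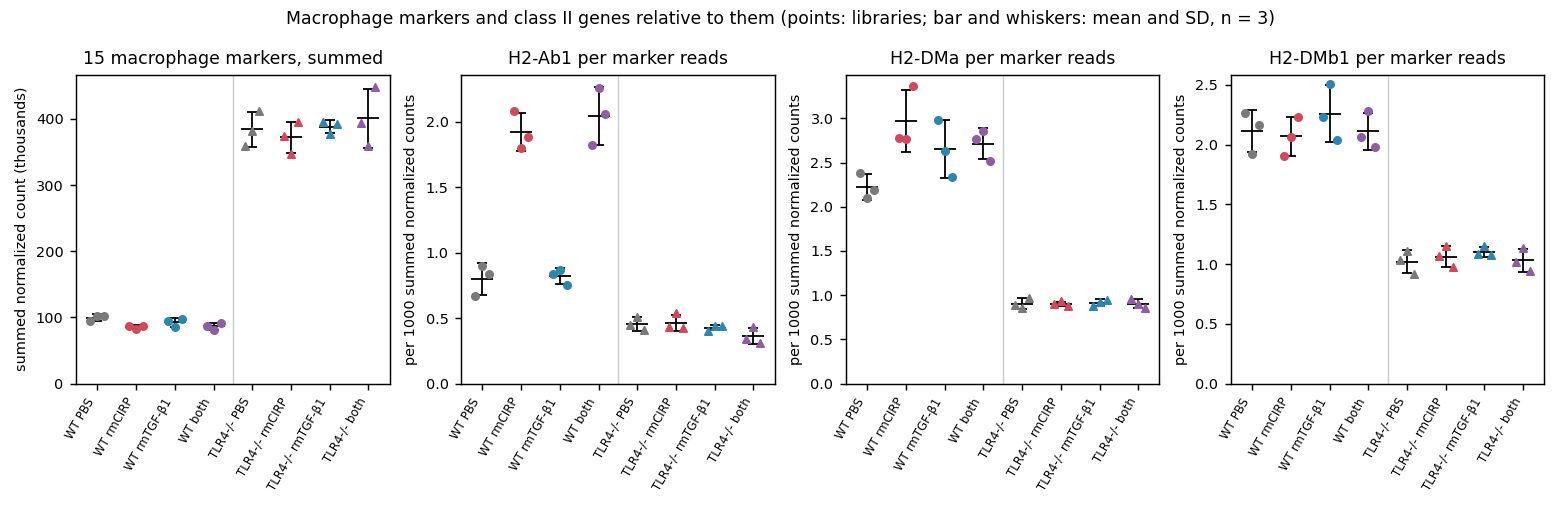
Summed normalized counts of 15 macrophage markers (in units of 1000) and the normalized counts of H2-Ab1, H2-DMa and H2-DMb1 per 1000 of that sum, by library with mean ± SD. The sum is 347758 to 448826 in libraries labelled TLR4-/- against at most 102457 in WT, and H2-Ab1 per 1000 is highest in WT with rmCIRP or both.

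Several defining markers of other cells were at or near 0, while others moved with rmCIRP or genotype. Of 9 dendritic cell markers, Flt3, Cd209a and Siglech had at most 3 reads in every library, and the list summed to 406 to 426 normalized counts in WT with PBS, 530 to 602 with rmCIRP and 665 to 945 in libraries labelled TLR4-/-. Of its 3 tested genes, Itgax (0.51) and Xcr1 (1.81) were higher with rmCIRP in WT cells, where 19.8% of all genes were. The 5 B cell markers summed to 4.94 to 81.0. The 1 tested gene, the B-lineage factor Pax5, went from 1.01 ± 0.999 to 55.9 ± 17.4 normalized counts with rmCIRP in WT cells and passed the filter only through WT conditions with rmCIRP, while Cd79a stayed at 4.96 ± 1.60 and 5.80 ± 1.48. Of the T and NK cell markers Cd3d, Cd3e, Cd8a and Ncr1 had at most 3 reads in every library (list sums 0 to 53.6). Cd4, the 1 tested gene of that list, had 33.2 ± 5.19 normalized counts in libraries labelled TLR4-/- with PBS against 6.02 ± 1.11 in WT, and passed the filter only through the former genotype. Alveolar type 2 markers summed to 588 to 1211, with Sftpb, Sftpa1 and Lamp3 at most at 3 reads, and endothelial markers to 264 to 1005. Abca3, which makes up nearly all of the type 2 sum, was higher with rmCIRP in WT cells (0.22) and in libraries labelled TLR4-/- with PBS (0.88). Of 5 endothelial markers 4 were lower there than in WT, Pecam1 (-1.72), Cdh5 (-1.81), Tie1 (-2.04) and Emcn (-2.18), and with rmCIRP in WT cells Kdr (-0.54) and Tie1 (-0.59) were lower. Of all genes 47.1% were called between genotypes with PBS, and 24.1% were lower with rmCIRP in WT cells. The part of these cells in the results was not tested.

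The pathway upstream of Ciita moved with rmCIRP in WT cells, where Ciita had 9 reads in 3 libraries. Ifng, the gene of interferon-γ itself, had no reads in any of the 24 libraries, with a 95% Poisson upper limit of 3.69 reads over all of them together. Of 9 tested genes of the interferon-γ pathway 7 were higher and 2 lower with rmCIRP, with a median log2 fold change of 0.43 against -0.02 over all genes tested. Of all genes 19.8% were higher and 24.1% lower. Irf1, a transcription factor that acts at the Ciita promoter, went from 423 ± 16 to 947 ± 101 normalized counts (log2 fold change 1.16, SE 0.09, edgeR adjusted p = 5.02e-10). Socs1, an inhibitor of the pathway, rose by 1.68 and Jak2, a kinase of the pathway, by 0.43. Irf8, a factor of the myeloid lineage, fell by 0.86 and the receptor chain Ifngr1 fell by 0.10.

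In libraries labelled TLR4-/- none of the 9 was called with rmCIRP, where edgeR called 0% of all genes. The difference in the response was past the threshold for 7 of the 9, 6 of them below the WT response (Irf1 at -1.07, Socs1 at -1.88) and Irf8 above it at 0.82. Over all genes it was past the threshold for 31.4%. With PBS 6 of 9 were higher in libraries labelled TLR4-/- and 1 lower, where 47.1% of all genes were called and 23.2% were higher. Irf8 had the largest difference of the list (2.06), with 1172 ± 58.3 against 280.1 ± 30.3, and Jak2 was the one lower (-0.53). With rmTGF-β1 against PBS in WT cells 2 of 9 were lower, and with both against rmTGF-β1 6 were higher and 1 lower, with Irf1 at 1.20. Of all genes 12.4% and 42.2% were called in these comparisons, in that order.

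The factors that bind the X and Y boxes changed little with rmCIRP. Of the 7 (the RFX subunits Rfx5, Rfxap and Rfxank, the NF-Y subunits Nfya, Nfyb and Nfyc, and Creb1), 1 was higher and 1 lower with rmCIRP in WT cells, Nfya at 0.15 and Creb1 at -0.12 on the log2 scale, with a median of 0.07. Of all genes 43.9% were called in that comparison. Between genotypes with PBS, where 47.1% of all genes were called, Nfya was higher (0.29) and Rfx5 (-0.23), Rfxank (-0.22) and Nfyc (-0.15) were lower. Between genotypes with rmCIRP, where 59.5% were called, Rfx5 (-0.42) and Rfxank (-0.29) were lower and Nfya (0.14) and Creb1 (0.14) higher. None of the 7 was called with rmCIRP in libraries labelled TLR4-/-, where edgeR called 0% of all genes.

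Of the 3 genes listed as acting on class II protein after synthesis, 2 were higher with rmCIRP in WT cells, where 19.8% of all genes were. Marchf1, a ligase that ubiquitinates class II and removes it from the surface, went from 127 ± 19.3 to 353 ± 6.24 normalized counts with rmCIRP in WT cells (log2 fold change 1.47, SE 0.09, edgeR adjusted p = 2.21e-11). Cd83, which opposes that ligase, went from 12.7 ± 1.46 to 87.1 ± 17.8 (2.77, SE 0.23, edgeR adjusted p = 3.22e-09). Marchf8, a related ligase, was at -0.07 and missed the threshold. With rmTGF-β1 present, rmCIRP gave 1.89 for Marchf1 and 2.20 for Cd83. With PBS both were higher in libraries labelled TLR4-/- than in WT (2.15 and 2.42), at 565 ± 12.5 normalized counts and 68.4 ± 5.51. Of all genes 23.2% were higher in that comparison. Neither was called in libraries labelled TLR4-/- with rmCIRP against PBS, where edgeR called 0% of all genes. Between genotypes with rmCIRP Marchf1 was higher in libraries labelled TLR4-/- (0.72), and Cd83 was at -0.34 and missed the threshold. The difference in the response to rmCIRP was -1.43 for Marchf1 and -2.76 for Cd83, both past the threshold by edgeR, as it was for 31.4% of all genes.

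All 7 genes of antigen processing were higher in libraries labelled TLR4-/- with PBS or rmTGF-β1, and 6 with rmCIRP or both proteins. Of all genes 23.2% were higher with PBS, 24.4% with rmTGF-β1, 30.4% with rmCIRP and 26.8% with both. Sppl2a was not called between genotypes with rmCIRP and was lower with both (-0.09, edgeR adjusted p = 0.0444). Ctss, the cathepsin that degrades the invariant chain, was higher by 1.77 on the log2 scale in libraries labelled TLR4-/- with PBS (SE 0.08, edgeR adjusted p = 7.53e-15), and all 7 were higher, down to 0.32 for Ctsl, with a median of 0.75. In WT cells with rmCIRP 1 was higher, Sppl2a (0.33), which cleaves the remnant of the invariant chain in the membrane, and 2 were lower, Lgmn (-0.22) and Ctsd (-0.17). Of all genes 19.8% were higher and 24.1% lower in that comparison. Ctss was at -0.11 there and missed the threshold. None was called with rmCIRP in libraries labelled TLR4-/-, where edgeR called 0% of all genes.

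The genes that restrain class II transcription and the co-stimulators that accompany class II on presenting cells also moved in WT cells with rmCIRP. Prdm1, a repressor of Ciita, rose by 2.73 on the log2 scale (SE 0.36, edgeR adjusted p = 2.93e-06) and Tgfb1 by 0.59. Il10, a cytokine that lowers class II, went from 0.986 ± 0.999 to 131 ± 44.3 normalized counts, the former resting on 3 reads in 3 libraries. It passed the filter only through WT conditions with rmCIRP, so its comparisons are given as a description. Of 3 co-stimulators Cd40 (3.29) and Cd86 (1.51) were higher and Cd80 lower (-0.18). Of all genes 19.8% were higher and 24.1% lower with rmCIRP in WT cells. None of these 6 was called with rmCIRP in libraries labelled TLR4-/-, where edgeR called 0% of all genes. The response of each differed between genotypes (31.4% of all genes), for Il10 only as a description. With PBS the co-stimulators were all higher in libraries labelled TLR4-/-, Cd86 by 2.84, Cd40 by 1.06 and Cd80 by 0.59, whereas of the restraining genes only Tgfb1 was called (0.25). In that comparison 47.1% of all genes were called and 23.2% were higher.

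**Figure D5:**
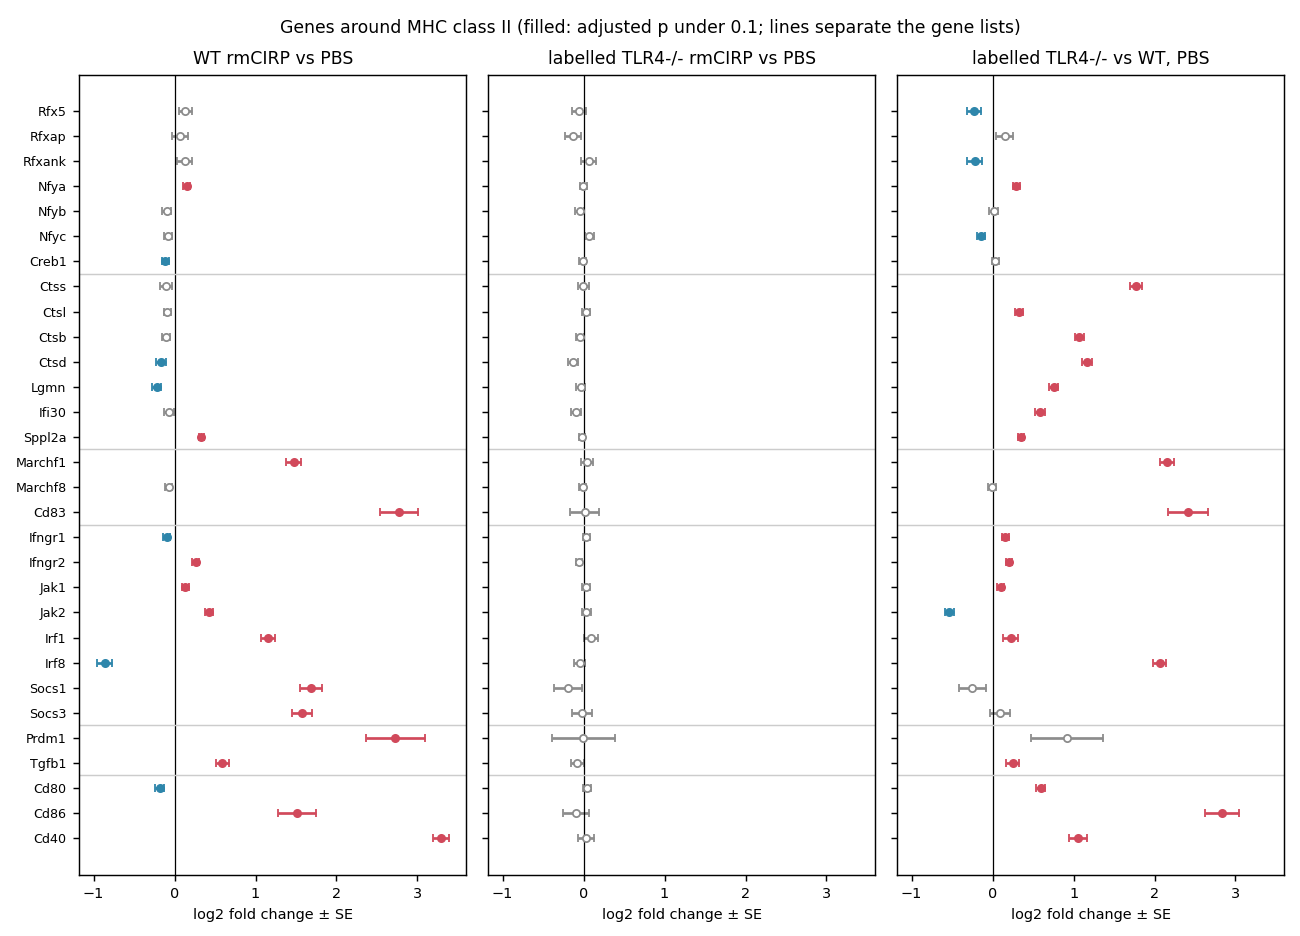
Log2 fold change by edgeR of the genes of the pathway lists with rmCIRP against PBS in WT, with rmCIRP against PBS in libraries labelled TLR4-/-, and between genotypes with PBS. Cd40 (3.29) and Cd83 (2.77) lead in WT among the genes drawn. No gene is called with rmCIRP in libraries labelled TLR4-/-, where edgeR called 0% of all genes. Il10 is left out because its WT libraries with PBS had at most 2 reads.

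The other class II genes were near the floor. H2-Ea, the I-E α chain, had no reads in any library, H2-Eb2 had at most 1 and H2-Oa, a chain of the H2-DM inhibitor H2-O, at most 6. H2-Ob, the other chain of H2-O, had 0 to 6 reads in WT libraries and 6 to 29 in those labelled TLR4-/-. With PBS its ratio between genotypes was 9.80 (58 reads against 6, 95% counting interval 4.24 to 27.8). H2-DMb2, the second β chain of H2-DM, had 0 to 4 reads in WT libraries and 5 to 25 in those labelled TLR4-/-, with a ratio of 6.76 with PBS (20 against 3, interval 2.00 to 35.5). Both passed the filter only through libraries labelled TLR4-/-, so these ratios are a description.

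The genes whose 8 condition means were most like those of a member were sought among 12308 genes that averaged 50 or more normalized counts, by the root mean square distance of centred log2 means. For H2-Ab1, whose means spanned 1.21 on that scale, they were Tmem243 (0.139), 5830432E09Rik (0.140) and Ptprj (0.157), and 0.366% of the genes lay within 0.25. Ptprj, a receptor tyrosine phosphatase, had means of 1076, 1850, 1032 and 2034 normalized counts in WT with PBS, rmCIRP, rmTGF-β1 and both, and 2245 to 2418 in libraries labelled TLR4-/-. For Cd74, with a span of 2.52, they were Ms4a6d (0.216), Ccdc88b (0.226) and the macrophage marker Adgre1 (0.237), with 0.0325% of genes within 0.25. Adgre1 had means of 2033, 4014, 1806 and 3777 in WT and 6380 to 7163 in the others. The summed macrophage markers went the other way with rmCIRP in WT cells, with 82230 to 87650 normalized counts against 94052 to 102457 with PBS. The Cd74 means rest on 8 to 63 reads per condition, so its distances carry counting error. For Ciita, whose means spanned only 0.743, the nearest were Ica1 (0.0770), Mettl15 (0.0942) and Arhgef10 (0.0946), but 50.5% of all genes lay within 0.25, so the likeness does not single them out.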

How the data were processed

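For each of 24 libraries of total RNA (stranded kit), the authors deposited raw counts of reads per gene symbol, made with STAR2, the mouse GENCODE annotation and ht-seq; the submitters' processing notes name NCBIM37, FastQC and HTSeq. The annotation release and strand setting are not given in the sources used here. The 5 tally lines of reads not assigned to a gene (14.5 to 16.1%) were left out. Groups follow the labels.

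Counts were tested in R 4.3.3 with edgeR 4.0.16 (filterByExpr, TMM, glmQLFit with a mean for each of 8 conditions over all 24 libraries, quasi-likelihood F-test, Benjamini-Hochberg over 16258 genes, adjusted p under 0.1) and checked on simulated data. SE is the log2 fold change over the root of F. Levels are counts over DESeq2 1.42.0 size factors, with intervals covering counting error only. Ratios to macrophage markers used log2((normalized count + 1)/sum).

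The members, gene lists and tests were chosen with earlier results of these data known. The text names all 7 members, the genes of fixed lists at the extremes or with a described role, and the 3 nearest genes for H2-Ab1, Cd74 and Ciita. Promoter motifs were sought in the 250 bases before each start; the 50 bases after it were left out. Some items of the lists and motifs are not reported here, though counts and medians over a list include all its tested genes. Alternatives were RLE factors, DESeq2, other filters, a replicate block, only the libraries compared, a short macrophage list and leaving out each library.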

Additional observations from a re-analysis of the deposited data

Results flagged for a closer look

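The 4 results here were singled out because the response to rmCIRP differed between the genotypes by a test of the difference itself, written as the response in libraries labelled TLR4-/- minus that in WT. For H2-Ab1 the difference was -1.05 on the log2 scale (SE 0.16, edgeR adjusted p = 5.86e-05). For Cd74 it was -2.47 (SE 0.50), a value that rests on 3, 3 and 2 reads in WT libraries with PBS and is given as a description, since the gene passed the filter only through conditions where it was higher. For H2-DMb1 it was 0.27 (SE 0.10, edgeR adjusted p = 0.0422), a call lost without any 1 of 7 libraries. In the presence of rmTGF-β1, the difference for H2-Ab1 was -1.43 (SE 0.17, edgeR adjusted p = 1.21e-06).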

How the results depend on the processing

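RLE factors changed none of the calls. With the replicate number as a block 3 members were called with rmCIRP in WT, as without it, and no call changed; same-numbered libraries had a mean correlation of 0.0111 over 84 pairs, 4 of them over 0.1, so the numbers do not pair them. Without a filter on low counts edgeR called 0 members with rmTGF-β1 in WT, 1 with both against rmTGF-β1 in WT, and 0 with both against rmCIRP in libraries labelled TLR4-/-. DESeq2 gave 0, 1 and 0 for these, and 1 for the difference in rmCIRP response (Cd74 had no adjusted p). Between genotypes with rmCIRP it called 2, against 3 by edgeR. Fitting only the libraries compared gave 0 for both against rmCIRP in libraries labelled TLR4-/-. Leaving out 1 library gave 0 to 1, 1 to 3 and 0 to 1 for the 3 comparisons named first, 0 to 1 for rmTGF-β1 in libraries labelled TLR4-/-, and 1 to 2 for the genotype difference in rmCIRP response under rmTGF-β1. It gave 3 to 4 for rmCIRP in WT, 2 to 3 for the genotype difference in rmCIRP response, and 4 in every case between genotypes with PBS and with rmTGF-β1. Signs changed for differences near 0: in the rmTGF-β1 response between genotypes H2-Ab1 was -0.026 without a filter, -0.0019 at a mean count of at least 10 and -0.11 to 0.15 over left-out libraries, H2-DMa -0.17 to 0.013 and Cd74 -0.97 to 0.12. The rmCIRP difference of H2-DMa under rmTGF-β1 was -0.018 to 0.16, and the ratio of H2-DMb1 to macrophage markers with rmCIRP in WT -0.099 to 0.025 (leaving out libraries for these ratios was added after seeing the data). With 5 macrophage markers in place of 15 that ratio was -0.16; between genotypes the ratios were -1.31, -1.80 and -1.55 with PBS and -2.36, -2.03 and -1.28 with rmCIRP for H2-Ab1, H2-DMa and H2-DMb1. The causes were not tested. Depth limits H2-Aa, Ciita and Cd74.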
